A study of Homo sapiens with 6 samples.

Results

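Chemokine ligands were examined in RNA-seq of HK-2 cells treated with oxidized low-density lipoprotein (OX-LDL). The 10 ligands were CXCL1, CXCL2, CXCL3, CXCL5, CXCL6, CXCL8, CXCL12, CCL2, CCL20 and CX3CL1. They were taken by gene name from the 58825 genes of the deposited table, and each name occurred there once. HK-2 cells are an immortalized cell line from the proximal tubule of the human kidney. The Control group was 3 libraries of untreated cells, and the OX-LDL group was 3 libraries of the same line exposed for 48 h to OX-LDL at 25 μg/ml. Both groups came from a single cell line, and the labels do not say that the 3 libraries of a group came from separate cultures, so p-values measure the spread between these libraries, which may be technical.

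Chemokines are small secreted proteins that attract leukocytes along a gradient. They are named by the spacing of their first cysteines. CXC ligands that carry the residues Glu-Leu-Arg before the cysteines (CXCL1, CXCL2, CXCL3, CXCL5, CXCL6 and CXCL8) act on the receptor CXCR2, some of them on CXCR1 too, and recruit neutrophils. CXCL12 acts on CXCR4, CCL2 on CCR2 of monocytes, CCL20 on CCR6 of lymphocytes and dendritic cells, and CX3CL1 (fractalkine) on CX3CR1. CX3CL1 and CXCL16 are made as membrane proteins and are shed by ADAM10 and ADAM17. Injured tubular epithelium is a known source of CXCL8 and CCL2, and transcription of many of these genes is induced through NF-κB and AP-1.

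The promoters of the ligand genes are shown because members that share a short stretch of regulatory sequence are among the ligands described below. RefSeq windows (GRCh38.p14, from 250 bases before to 50 bases after the transcription start) were at hand for 8 ligands, with CCL2 and CX3CL1 as the others. The letters GGNNTTTCC, an NF-κB-type motif read on both strands, were in 7 of the 8 windows and in 6.26% of all 35116 windows. The AP-1 motif TGANTCA was in 1 of the 8 windows, that of CXCL8, and in 7.71% of all windows. The motif TGATGNAA, which is of the C/EBP-ATF type, was in none of the 8 and in 3.62% of all windows. Other C/EBP motifs were not searched, so their presence in these windows is not known from this count. The matches to the 3 motifs are descriptions of the letters and not of binding. The stretches around these matches show how alike the ligand genes are there, and run 5′ to 3′ on each gene's strand with the NF-κB-type letters in capitals. For CXCL1, CXCL2 and CXCL3, which held a pair of matches, the one farther from the start is given.
CXCL8 (chr4:73740468-73740496, + strand): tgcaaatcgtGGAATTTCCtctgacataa
CXCL5 (chr4:73998749-73998777, - strand): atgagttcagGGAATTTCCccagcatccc
CXCL6 (chr4:73836579-73836607, + strand): ctgagttcagGGAATTTCCccagcatccc
CXCL1 (chr4:73869305-73869333, + strand): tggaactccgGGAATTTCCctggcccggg
CXCL2 (chr4:74099254-74099282, - strand): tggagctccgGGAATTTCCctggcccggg
CXCL3 (chr4:74038749-74038777, - strand): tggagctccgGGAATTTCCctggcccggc
CCL20 (chr2:227813753-227813781, + strand): tgatcaatggGGAAAACCCcatgtggcaa
The 6 CXC ligands on chromosome 4 held the same 9 letters, while the match of CCL20 is the reverse complement of the motif with other letters inside it. CXCL12 held no match. The RefSeq start of CCL20 lies 8103 bases inside the gene's start in the deposited table, and that of CXCL8 lies 28 bases inside.

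The whole window of CXCL8 (chr4:73740319-73740618, + strand) is printed because CXCL8 was the ligand with the largest fall. Of the 8 windows at hand, it alone held the AP-1 letters, and CCL2 and CX3CL1 could not be searched. Whether these letters bear on the fall was not tested. The capitals mark TGACTCA at positions -137 to -131 and GGAATTTCC at -91 to -83, counted from the start.
CXCL8: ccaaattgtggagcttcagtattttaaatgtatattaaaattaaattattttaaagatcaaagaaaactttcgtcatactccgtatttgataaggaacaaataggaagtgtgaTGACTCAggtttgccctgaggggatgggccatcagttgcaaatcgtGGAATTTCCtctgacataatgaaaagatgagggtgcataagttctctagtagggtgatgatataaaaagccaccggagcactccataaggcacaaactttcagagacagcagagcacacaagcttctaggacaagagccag
The window of CXCL5 (chr4:73998628-73998927, - strand) is set beside it because CXCL5 was the other abundant neutrophil-attracting ligand.
CXCL5: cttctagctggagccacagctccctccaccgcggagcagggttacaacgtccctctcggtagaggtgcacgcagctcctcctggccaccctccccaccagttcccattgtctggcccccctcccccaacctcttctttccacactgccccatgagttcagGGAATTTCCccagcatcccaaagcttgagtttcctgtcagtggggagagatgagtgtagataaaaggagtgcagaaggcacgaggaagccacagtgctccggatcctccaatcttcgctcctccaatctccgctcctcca
Aligned from end to end, the CXCL8 and CXCL5 windows were identical at 43.0% of alignment columns, against 83.1% for CXCL5 and CXCL6 and 69.8% to 82.5% among CXCL1, CXCL2 and CXCL3.

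**Figure D1:**
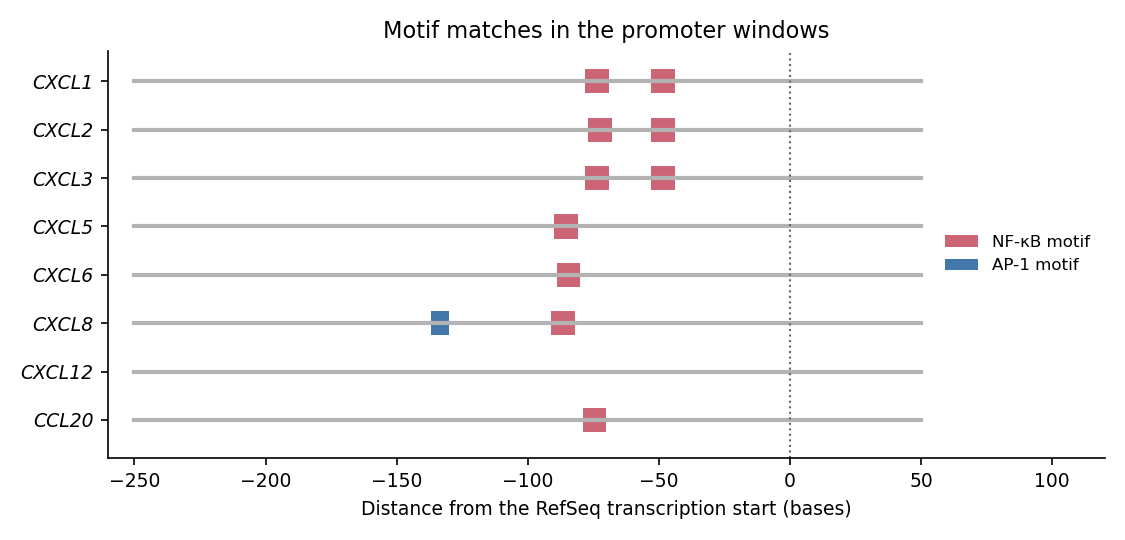
Matches of the NF-κB-type and AP-1 motifs (bars, drawn to scale) in the 8 promoter windows, plotted by distance in bases from the RefSeq transcription start (dotted line). Each of the 6 CXC windows from chromosome 4 held an NF-κB-type match between positions -91 and -69, and CXCL8 alone held the AP-1 match.

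The deposited table gave FPKM (fragments per kilobase, corrected for the size of the library) and an estimated count for each gene. Low counts piled up at multiples of 4, so that 4 counts were read as 1 read pair, and the detection limit of a library was set at 12 counts (3 read pairs). The libraries held 15640337 to 19199402 read pairs on this scale. Of the 10 ligands, 8 had counts in every library, all above that limit but CXCL3 in OX-LDL replicate 2, and 2, CXCL6 and CXCL12, were listed at 0 in all 6 libraries, which allows up to 3 read pairs in each. Such limits allow for counting error alone, since PCR copies of a molecule count as separate reads. The 8 detected ligands were tested, along with every gene whose mean reached 0.1 FPKM (19510 in all), by edgeR's quasi-likelihood test on the counts. The adjusted p-values are Benjamini-Hochberg values over these 19510 genes. With 3 libraries against 3, a two-sided exact permutation test of a single value has 0.1 as its smallest p-value.

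The cell label was checked against markers. KRT8, KRT18, EPCAM and PAX8 were present in every library at group means of 19.4 to 65.4 FPKM, while the proximal tubule genes LRP2, CUBN, AQP1 and SLC34A1 were at a mean under 0.1 FPKM, with LRP2 at 0 counts throughout. Of 15 tubular epithelial markers (16 table entries, since GGT1 has 2), 11 entries could be tested. Of these, 4 rose (KRT19, CDH6 and KRT8 among them) and 2 fell (PAX8 and 1 entry of GGT1), where 7.91% and 7.42% of all genes tested did so. The summed level of the 16 entries went from between 221 and 246 FPKM in Control to between 266 and 302 FPKM in OX-LDL. The leukocyte gene PTPRC had at most 8 counts and the endothelial genes CDH5, VWF and KDR at most 4 counts in any library. The 10 leukocyte markers summed to between 3.17 and 7.80 FPKM in Control and between 9.20 and 14.2 FPKM in OX-LDL, nearly all of it CD68, with 6 of the 10 at or under the detection limit in every library and CD3E, LYZ and MS4A1 among them. The 6 endothelial markers summed to at most 0.146 FPKM in any library. The 6 fibroblast markers summed to between 10.1 and 12.01 FPKM in Control and between 8.76 and 14.1 FPKM in OX-LDL, nearly all of it LUM, with DCN at 0. The part of CD68 and of the epithelial markers in the results that follow was not tested. In bulk RNA, fewer cells making a ligand and less of its mRNA per cell cannot be told apart.

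OX-LDL libraries held less mRNA of CXCL8 and of CCL2, the chief neutrophil and monocyte attractants of the set, and no ligand passed the test upward. Of the 8 ligands tested, 2 were lower by edgeR with adjusted p-values under 0.05, where 7.42% of all genes tested were lower, and 0 were higher, where 7.91% were. At an unadjusted p-value under 0.05, 3 of the 8 were lower (CXCL8, CCL2 and CXCL2), where 15.1% of all genes tested were lower, and 0 were higher, where 15.3% were. The study's limits (fold change above 2 or below 0.5, unadjusted p-value under 0.05) were applied to the edgeR fit used here. The calls can thus differ from the study's own. By these limits, the same 3 ligands were lower, where 3.16% of all genes were, and 0 were higher, where 3.19% were. In DESeq2, the 3 also had adjusted p-values under 0.05 and no ligand was higher, where 10.7% of all genes were lower and 11.5% higher. The fitted log2 fold change was negative for 7 of the 8, and its median over the 8 was -0.75, against -0.00 over all genes tested. In FPKM, the 3 OX-LDL libraries lay below the 3 Control libraries for 4 ligands and above them for 1, where 20.5% and 16.8% of all genes tested did so (37.2% in either direction).

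**Figure D2:**
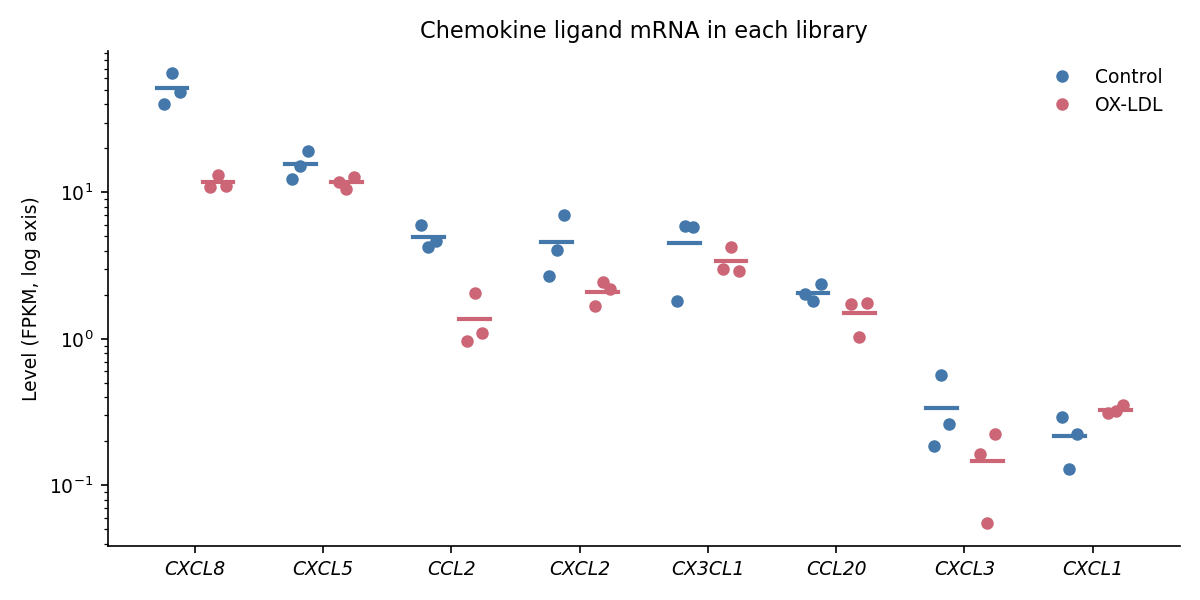
FPKM (log axis) of the 8 detected ligands in each of the 6 libraries, with points for libraries and bars for group means. CXCL8 and CCL2 show separate groups with means of 51.2 against 11.7 FPKM and 4.99 against 1.37 FPKM, while the points of CXCL5, CX3CL1 and CXCL3 overlap between groups.

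CXCL8 (ENSG00000169429; chromosome 4, 73740541 to 73743716), the neutrophil chemokine also called interleukin-8, had the highest level of the 10 in Control. It measured 40.2, 65.1 and 48.5 FPKM in the Control libraries and 10.9, 13.1 and 11.1 FPKM in the OX-LDL libraries. Every OX-LDL library was thus far below every Control library, and the OX-LDL libraries lay close together. Mean levels were 51.2 ± 12.7 (Control) and 11.7 ± 1.20 FPKM (OX-LDL, SD, n = 3 each). The log2 fold change was -2.09 (standard error, SE, 0.18, 95% interval -2.52 to -1.67, edgeR adjusted p = 0.0018). Behind these levels stood 7897 to 12998 counts in Control and 1806 to 2659 in OX-LDL. With each library left out in turn, the log2 fold change lay between -2.24 and -1.90.

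CCL2 (ENSG00000108691; chromosome 17, 34255218 to 34257203), the monocyte chemoattractant MCP-1, measured 6.03, 4.27 and 4.66 FPKM in the Control libraries. In the OX-LDL libraries it measured 0.962, 2.06 and 1.09 FPKM. The groups did not overlap, and OX-LDL replicate 2 was the highest of its group. The means were 4.99 ± 0.924 and 1.37 ± 0.602 FPKM (SD over 3 libraries each), which gave a log2 fold change of -1.81 (SE 0.33, 95% interval -2.59 to -1.04, edgeR adjusted p = 0.0149). Without OX-LDL replicate 3, the log2 fold change was -1.67 and the adjusted p-value 0.0595. With the replicate number as a block, the adjusted p-value was 0.0468.

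CXCL2 (ENSG00000081041; chromosome 4, 74097040 to 74099195), a neutrophil attractant also called GROβ, measured 2.68, 4.01 and 6.98 FPKM in Control and 1.67, 2.43 and 2.17 FPKM in OX-LDL. The groups were separate by a narrow margin, from 2.43 to 2.68 FPKM, and the Control libraries were widely spread. The log2 fold change was -1.09 (SE 0.36, 95% interval -1.94 to -0.24, edgeR unadjusted p = 0.0195 and adjusted p = 0.0905). The adjusted p-value was 0.0153 in DESeq2. Without Control replicate 3, which had the highest level, the log2 fold change was -0.64.

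CXCL5 (ENSG00000163735; chromosome 4, 73995642 to 73998677), a neutrophil attractant also called ENA-78, was the ligand with the next highest level. It measured 12.4, 15.3 and 19.1 FPKM in Control and 11.8, 10.6 and 12.8 FPKM in OX-LDL. The groups overlapped, since OX-LDL replicate 3 was above Control replicate 1. The log2 fold change was -0.38 (SE 0.16, 95% interval -0.77 to 0.01, edgeR adjusted p = 0.174). Without Control replicate 3 the log2 fold change was -0.20. The intervals of CXCL5 and CXCL8 did not overlap.

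CXCL3 and CXCL1, the close relatives of CXCL2 that are also called GROγ and GROα, were near the detection limit. CXCL3 (ENSG00000163734; chromosome 4, 74036589 to 74038807) had counts of 38, 115 and 49 (Control) against 28, 12 and 47 (OX-LDL). Its groups overlapped, and its log2 fold change was -1.13 (SE 0.62, 95% interval -2.61 to 0.34, edgeR adjusted p = 0.275). Leaving out Control replicate 2 gave -0.57, and leaving out OX-LDL replicate 2 gave -0.74. CXCL1 (ENSG00000163739; chromosome 4, 73869393 to 73871242) had counts of 34, 15 and 25 (Control) against 31, 38 and 43 (OX-LDL). In FPKM it measured 0.292, 0.129 and 0.226 in Control and 0.311, 0.320 and 0.355 in OX-LDL. CXCL1 was the single ligand of the 8 whose OX-LDL libraries all lay above the Control libraries, with a log2 fold change of 0.63 (SE 0.43, 95% interval -0.40 to 1.66, edgeR adjusted p = 0.384). Without Control replicate 2 it was 0.35. At 3.75 to 10.8 read pairs per library, a change of this size could not be resolved.

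The transcripts of CXCL1, CXCL2 and CXCL3 share sequence, which bears on how reads were assigned among them. In the GENCODE release 29 transcripts of 46 chemokine ligands, 12.5% of the 50-base windows of CXCL2 also occurred in CXCL1 or CXCL3. The shares were 4.81% for CXCL1 and 6.01% for CXCL3, and 0 for the other 7 ligands. At 150 bases, the read length, 1.83% of the windows of CXCL2 and 1.15% of those of CXCL3 were shared. How reads were split among these 3 genes was not tested, and their values are uncertain for that reason. Release 29 gave the deposited coordinates for 4 of the 10 ligands, so its transcripts can differ from those that were counted. No gene of the table overlapped any of the 10 ligands on either strand.

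CCL20 (ENSG00000115009; chromosome 2, 227805739 to 227817564), the ligand of CCR6, measured 2.02, 1.81 and 2.36 FPKM in Control and 1.73, 1.03 and 1.75 FPKM in OX-LDL. The groups were apart by 0.06 FPKM, from 1.75 to 1.81. The log2 fold change was -0.42 (SE 0.26, 95% interval -1.04 to 0.20, edgeR adjusted p = 0.335), and -0.21 without OX-LDL replicate 2. CX3CL1 (ENSG00000006210; chromosome 16, 57372477 to 57385044), the membrane-bound fractalkine, measured 1.80, 5.85 and 5.78 FPKM in Control and 2.98, 4.24 and 2.90 FPKM in OX-LDL. Control replicate 1 was the lowest of all 6 libraries and the other Control libraries were the highest, so the groups overlapped. The log2 fold change was -0.37 (SE 0.42, 95% interval -1.37 to 0.63, edgeR adjusted p = 0.614). It was -0.74 without Control replicate 1 (edgeR adjusted p = 0.0657), -0.14 without Control replicate 2 or 3 and -0.57 without OX-LDL replicate 2.

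**Figure D3:**
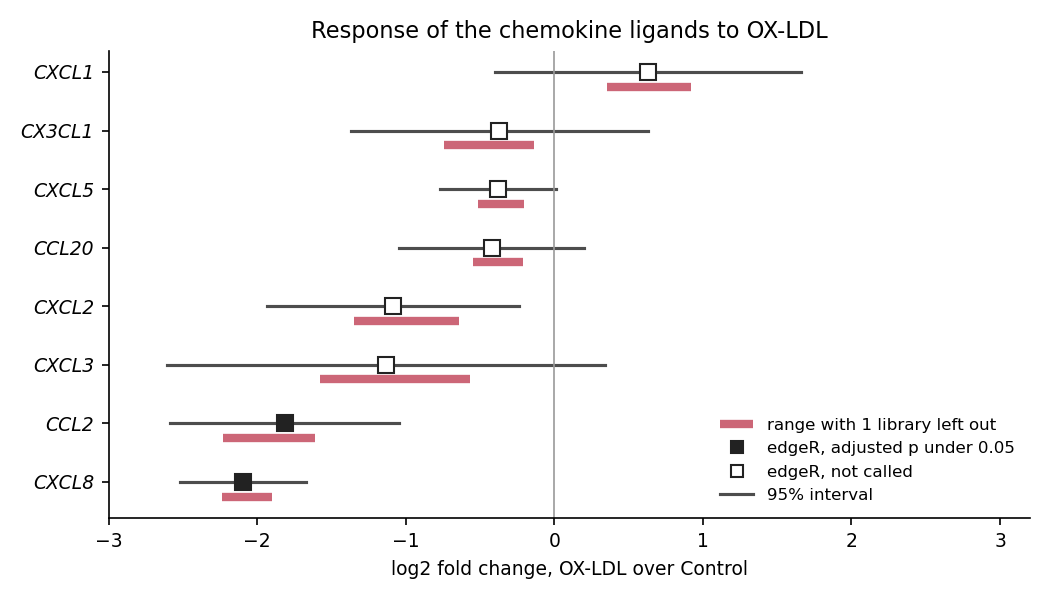
Log2 fold change (OX-LDL over Control, horizontal axis) of the 8 detected ligands from edgeR (squares, filled at an adjusted p-value under 0.05) with 95% intervals (grey lines) and the range over fits that leave out 1 library (red bars). CXCL8 at -2.09 and CCL2 at -1.81 are filled, and the intervals of CXCL3, CCL20, CXCL5, CX3CL1 and CXCL1 include 0.

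The order of the ligands by level differed between the groups. In Control, CXCL8 stood above CXCL5 and CXCL5 above CCL2 without overlap, whereas CCL2, CXCL2, CX3CL1 and CCL20 overlapped each with the next, and CXCL3 overlapped with CXCL1 far below. In OX-LDL, CXCL5 and CXCL8 overlapped at means of 11.7 and 11.7 FPKM, and CX3CL1 followed at 3.38 FPKM without overlap with either neighbour in the order. CXCL2, CCL20 and CCL2 came next, each overlapping with the one after it. CCL2 moved from the third to the sixth place.

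The summed FPKM of the 10 ligands was 65.6, 97.0 and 87.9 in Control and 30.5, 33.8 and 32.4 in OX-LDL. All OX-LDL sums were below all Control sums, with means of 83.5 ± 16.2 and 32.2 ± 1.64 (SD over 3 libraries each). Without CXCL8 the sums were 25.4, 31.9 and 39.4 FPKM in Control and 19.6, 20.7 and 21.3 FPKM in OX-LDL, without overlap. Without CXCL8 and CCL2 they were 19.4, 27.6 and 34.8 FPKM in Control against 18.6, 18.7 and 20.2 FPKM in OX-LDL. These overlapped through Control replicate 1 alone. CXCL8 and CCL2 were left out as the ligands called in these same data, so no test of the remainders is given. CXCL8 made up 61.2%, 67.1% and 55.2% of the sum in Control and 35.8%, 38.7% and 34.2% in OX-LDL. CXCL5 made up 18.9%, 15.7% and 21.8% in Control and 38.6%, 31.3% and 39.5% in OX-LDL. The level of CXCL8 relative to CXCL5 was 3.35 ± 0.871 in Control and 1.01 ± 0.198 in OX-LDL. For this ratio the exact permutation test gave p = 0.1, two-sided, which is the smallest value it allows with 3 against 3. The level of CXCL8 relative to CCL2 was 10.8 ± 4.30 in Control and 9.28 ± 2.62 in OX-LDL, and these groups overlapped (exact permutation test, two-sided p = 0.6). Both ratios hold CXCL8, which was called in these same data, so the tests of these ratios give no further support.

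The ligand genes on chromosome 4 lie together, and neighbours there had unlike levels. CXCL8, CXCL6, CXCL1, CXCL5, CXCL3 and CXCL2 fall within 358.7 kb, a stretch with 16 genes in the table. Of these 16, 10 had 0 counts in every library, among them CXCL6 and the platelet chemokine genes PF4, PF4V1 and PPBP. Between CXCL8 at one end and CXCL5, whose start is 258 kb away, stood CXCL1 at a mean of 0.216 FPKM in Control and CXCL6 at 0. CXCL3, the next ligand gene, starts at 298 kb from CXCL8, and the Control means of CXCL5 and CXCL3 were 15.6 and 0.340 FPKM. Of the 5 tested ligands in the cluster, CXCL8 passed the test at an adjusted p-value under 0.05, and all but CXCL1 had a negative log2 fold change. Over all genes tested, 7.42% were lower and 7.91% higher at that threshold.

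**Figure D4:**
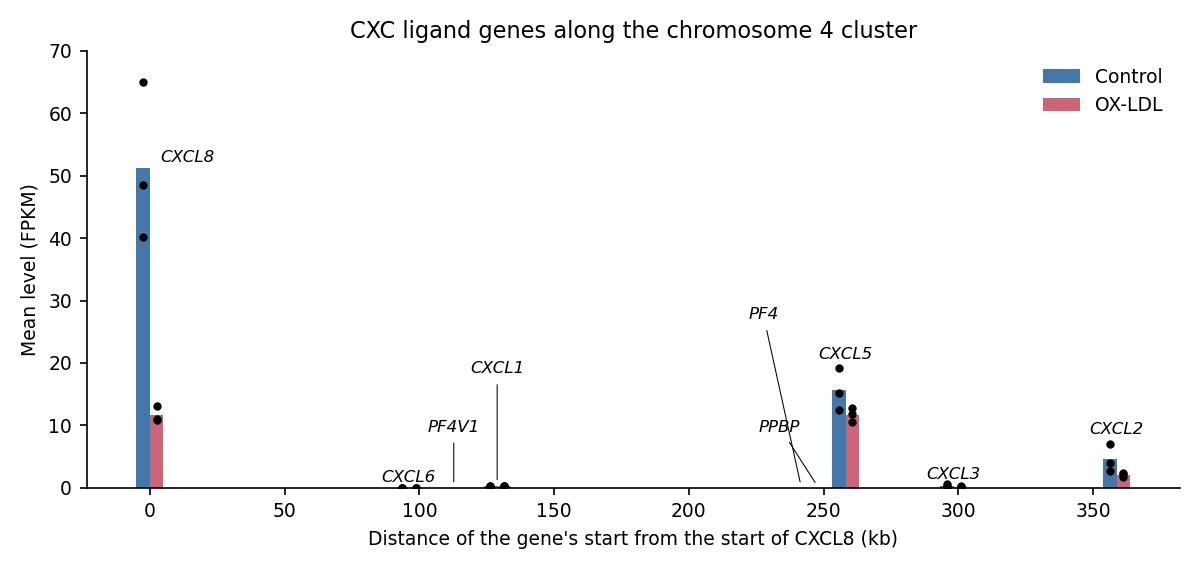
Mean FPKM (bars) and single libraries (black points) of the chemokine genes of the chromosome 4 cluster in Control and OX-LDL, plotted by the distance of each gene's start from that of CXCL8 in kb. CXCL8 falls from 51.2 to 11.7 FPKM, CXCL5 at 258 kb stands at 15.6 and 11.7 FPKM, and CXCL6, PF4V1, PF4 and PPBP are at 0.

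Among 36 other chemokine ligand genes, 29 had at most 12 counts in every library and 25 of these had none. CXCL9, CXCL10, CXCL11, CCL5 and CCL7, which attract T cells and monocytes, had at most 8 counts in any library. The 3 that could be tested were CXCL16, CCL26 and CCL28. CCL26 reached the minimum of 0.1 FPKM through OX-LDL alone (means of 0 and 0.239 FPKM). Its direction was thus fixed in advance, and its call gives no support to a rise of this list. CXCL16 passed and CCL28 did not, both with positive log2 fold changes, where 7.91% of all genes tested were higher. CXCL16, a membrane-bound ligand of CXCR6, measured 0.848, 0.891 and 1.25 FPKM in Control and 2.42, 1.76 and 2.53 FPKM in OX-LDL. Its groups did not overlap (log2 fold change 1.19, SE 0.23, edgeR adjusted p = 0.0185), though its adjusted p-value stayed under 0.05 in 2 of 6 fits with 1 library left out. CCL26, an eosinophil attractant, was at 0 in every Control library, and OX-LDL replicates 1 to 3 held 20, 8 and 15 counts, so that replicate 2 was itself under the detection limit. The OX-LDL mean of CCL26 was 1.28 times the level that 12 counts per library would give in Control. This ratio carries no allowance for counting error and was not tested. The adjusted p-value of CCL26 from edgeR's fit to the counts, with Control at 0, was 0.0276. That p-value stayed under 0.05 in 1 of 6 fits with 1 library left out and was 0.118 with the replicate number as a block. CCL28, a mucosal chemokine of epithelia, had a log2 fold change of 0.32 (edgeR adjusted p = 0.263). In each library, the summed level of these 36 genes, 3.48 to 4.07 FPKM in Control and 5.38 to 6.62 in OX-LDL, was below that of the 10 ligands.

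Of 22 chemokine receptor genes, 18 had at most 12 counts in every library, CXCR1, CXCR2, CXCR4, CCR2, CCR6 and CX3CR1, the receptors of the ligands above, among them. ACKR4, an atypical receptor that takes up CCL19, CCL21 and CCL25, measured 1.06, 1.06 and 1.01 FPKM in Control. In the OX-LDL libraries it had 16, 0 and 27 counts, or 0.0897, 0 and 0.130 FPKM. These counts were near or under the detection limit of 12 counts, so the size of the fall is uncertain. ACKR4 reached the minimum of 0.1 FPKM through its Control level alone (OX-LDL mean 0.0731 FPKM). The log2 fold change was -3.76 (SE 0.95, edgeR adjusted p = 0.0413), and the adjusted p-value stayed under 0.05 in 1 of 6 fits with 1 library left out and was 0.0827 with the replicate number as a block. CCR10, the receptor of CCL28, was the other tested gene (log2 fold change -0.13, edgeR adjusted p = 0.891). Over all genes tested, 7.42% were lower at an adjusted p-value under 0.05.

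Of 10 genes whose proteins shed, trim or hold chemokines, 9 could be tested, and 2 rose and 0 fell, where 7.91% of all genes rose and 7.42% fell. GPC1, a heparan sulfate proteoglycan (edgeR adjusted p = 0.0017), rose, with 1.95 ± 0.137 FPKM in Control against 4.94 ± 0.589 FPKM in OX-LDL (SD over 3 libraries each) and a log2 fold change of 1.37. SDC1 (syndecan-1), another heparan sulfate carrier (edgeR adjusted p = 0.0051), rose, with 31.0 ± 2.13 FPKM in Control against 47.7 ± 2.96 FPKM in OX-LDL and a log2 fold change of 0.65. The sheddase ADAM10 had a log2 fold change of 0.30 (edgeR adjusted p = 0.0634 and 0.0370 in DESeq2) and ADAM17 had -0.18 (edgeR adjusted p = 0.294). DPP4, a peptidase that trims chemokines, had 0.22 (edgeR adjusted p = 0.101).

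Of 22 genes of inducing cytokines, their receptors and adaptors, 18 could be tested, and 2 rose and 1 fell, a share near the 15.3% of all genes called in either direction. IL6 measured 3.24, 3.29 and 3.46 FPKM in Control and 5.39, 5.18 and 5.74 FPKM in OX-LDL. The groups did not overlap, with OX-LDL higher and a log2 fold change of 0.73 (SE 0.12, edgeR adjusted p = 0.0104). LIF, of the same cytokine family, had a log2 fold change of 0.53 and TLR3, a receptor for double-stranded RNA, -0.61. Their adjusted p-values in edgeR's test, 0.0472 and 0.0477, stayed under 0.05 in 1 and 0 of 6 fits with 1 library left out. TNF had counts of 46, 70 and 25 (Control) against 16, 8 and 19 (OX-LDL) (log2 fold change -1.61, edgeR adjusted p = 0.0977). IL1A and IL1B were at a mean under 0.1 FPKM, with at most 23 and 34 counts. IL1R1, their receptor, had a log2 fold change of 1.25 (edgeR adjusted p = 0.0861 and 0.0075 in DESeq2). MYD88, the adaptor of that receptor, had 0.51 (edgeR adjusted p = 0.108 and 0.0471 in DESeq2).

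Of 26 transcription factors of chemokine promoters and their inhibitors, all could be tested, and 6 rose and 8 fell at an adjusted p-value under 0.05. The background was 7.91% of all genes higher and 7.42% lower. It was larger among better expressed genes. With a minimum of 1 FPKM, 3152 of 12259 genes were called in either direction, and 14 of this list. The list was chosen with earlier results of these data known, so its count is a description only. Among the AP-1 family, JUN fell, with 35.3 ± 5.57 FPKM in Control against 16.9 ± 1.20 FPKM in OX-LDL (SD over 3 libraries each) and a log2 fold change of -1.03, while JUNB (0.64) and FOSL1 (0.81) rose. FOS was low in both groups, at 0.464 ± 0.0873 and 0.525 ± 0.0823 FPKM. CEBPB, which encodes a factor of the C/EBP type, fell from 14.5 ± 1.92 to 6.28 ± 1.45 FPKM (log2 fold change -1.17). ATF3 fell from 4.10 ± 0.985 to 0.940 ± 0.360 FPKM (log2 fold change -2.09) and ATF4 from 147 ± 3.34 to 95.8 ± 7.15 FPKM (-0.59). HIF1A (-0.82) and IRF1 (-0.84) fell too.

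Among the NF-κB genes of that list, the changes went in both directions. RELA, which encodes p65, rose with a log2 fold change of 0.86 and REL with 0.85, whereas NFKB1, which encodes p50, fell with -0.30. TNFAIP3, a feedback inhibitor of NF-κB, fell with a log2 fold change of -0.53. NFKBIA, which encodes IκBα, had a log2 fold change of -0.25 (edgeR adjusted p = 0.145). NFKBIB, which encodes IκBβ, had -0.87 (edgeR adjusted p = 0.123 and 0.0340 in DESeq2), with overlapping groups. NFKB2 (0.09), RELB (-0.33), NFKBIE (0.27), NFKBIZ (0.22) and BCL3 (0.55) were not called. STAT3 (0.45) rose. The adjusted p-values of the 14 called genes of this list lay between 0.0043 and 0.0444 in edgeR's test. With each library left out in turn, 7 of the 14 (JUN, CEBPB, ATF3, ATF4, STAT3 and HIF1A among them) stayed under 0.05 in all 6 fits, whereas NFKB1 did so in 0, REL, TNFAIP3 and JUNB in 1, RELA and FOSL1 in 2 and IRF1 in 3.

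Of 8 tested regulators of the stability of AU-rich mRNAs such as those of CXCL8 and CXCL2, ZFP36L1 alone passed. That is near the share of all genes tested that were called in either direction, 15.3%. ZFP36L1, a decay factor, fell, with 89.5 ± 3.76 FPKM in Control against 56.2 ± 6.90 FPKM in OX-LDL (SD over 3 libraries each) and a log2 fold change of -0.64 (edgeR adjusted p = 0.0092). ZFP36 (tristetraprolin) was at 1.69 ± 0.340 and 1.65 ± 0.319 FPKM, with a log2 fold change of -0.00. ZC3H12A (regnase-1), an endonuclease of cytokine mRNAs, had a log2 fold change of 0.31, KHSRP, another decay factor, -0.20, and TIA1, a binder of AU-rich sequences, 0.21, with edgeR adjusted p-values of 0.145, 0.108 and 0.203. ELAVL1 (HuR), which stabilizes such mRNAs, had 0.09 (edgeR adjusted p = 0.532). N4BP1 was not found by name in the table.

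**Figure D5:**
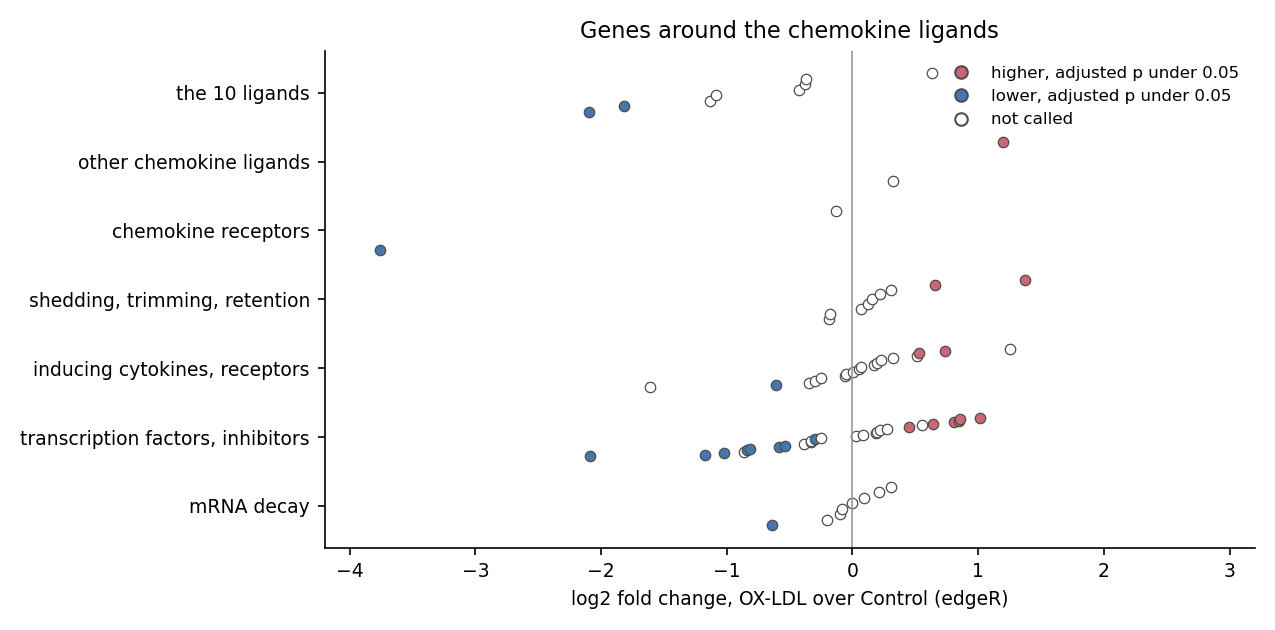
Log2 fold change (OX-LDL over Control, edgeR) of each tested gene in the 7 lists, 1 point per gene, colored where the adjusted p-value was under 0.05. The list of 26 transcription factors and inhibitors holds 6 higher and 8 lower genes, and CCL26, whose Control counts were 0, is left out.

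The genes whose levels ran most like those of CXCL8 and CCL2 over the 6 libraries were taken from 12258 other genes whose mean reached 1 FPKM, by Pearson's correlation of log2 normalized counts. For CXCL8 the 5 closest were TMEM65, CDKN1A, AP003064, CMTR2 and RND3, each with a correlation of 0.998. CDKN1A, which encodes the cell cycle inhibitor p21, had 20.4 ± 2.98 FPKM in Control and 7.41 ± 0.688 in OX-LDL (SD over 3 libraries each). For CCL2 the 5 closest were MPDZ, RNASEH2A, ZNF516, CYP2R1 and TBC1D14, with correlations from 0.995 to 0.9995. CXCL8 and CCL2 had a correlation of 0.911 with each other. The 6 points hold the difference between the groups, so these values describe a shared pattern over libraries and are given with no p.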

How the data were processed

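Poly(A) RNA was sequenced in 3 Control and 3 OX-LDL libraries of HK-2 cells, as 150-base read pairs. The authors deposited estimated counts, not scaled for library size, and FPKM values, scaled per kilobase and for library size, with a count of 0 listed at 0.0001 FPKM. The submitters' processing notes name cutadapt 1.9, HISAT2 2.0.4, StringTie 1.3.4d and GRCh38. The library kit marked strand, but the strand setting of the counting is not given in the sources used here. The counts were whole and were not rounded. Total counts were 62561347 to 76797607 per library. Counts were tested with edgeR (version 4.0.16, R 4.3.3) after TMM normalization, with the group as the only term. SE is the size of the fitted log2 value over the root of its F statistic. Alternatives were DESeq2 (1.42.0), limma (3.58.1) on log2(FPKM + 0.1), with pseudocounts of 1 and 0.01 too, RLE factors, counts per read pair, minimums of 1 and 0 FPKM, the replicate number as a block, and leaving out each library. The fits were tested on simulated data. The ligands and gene lists were chosen with earlier results of these data known. Named genes were the 10 ligands, of each list the genes lowest in p (at most 5), any called in both edgeR and DESeq2, and the 5 closest in pattern to CXCL8 and to CCL2. MYD88, FOS, ZFP36, IL1A, IL1B, KRT18, EPCAM, other NF-κB genes and genes near or under the detection limit were added after their values were seen. A planned comparison of protein sequences was not made. Some genes that the rule names are not reported here. Coordinates are those of the authors' table, and 81.2% of 58552 shared identifiers had the same coordinates in GENCODE release 29 (GRCh38). Of the 10 ligands, 4 did.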

Additional observations from a re-analysis of the deposited data

How the results depend on the processing

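Over 15 alternatives, each of the 8 tested ligands kept the sign of its log2 fold change, and CXCL8 kept an adjusted p-value under 0.05 in all of them (log2 fold change -2.24 to -1.90 with each library left out and -2.11 to -2.02 otherwise). CXCL1 and CXCL3 had no value with a minimum of 1 FPKM, under which they fall. CXCL2 passed the threshold in DESeq2 only (log2 fold change -1.08, adjusted p = 0.0153), against 0.0514 to 0.229 with each library left out. CCL2 ran from -2.23 to -1.61 with each library left out and was above the threshold without OX-LDL replicate 3 (-1.67, adjusted p = 0.0595), so the ligands called lower numbered 1 to 2 in those fits and 2 to 3 otherwise. The count of all genes called fell from 2991 to between 1161 and 1993 when any library but OX-LDL replicate 2 was left out, to 2943 without that library, to 1636 with the replicate block, and was 4323 in DESeq2. Calls in 4 of the lists moved too, whereas the shedding, trimming and retention list kept 2 to 3 calls and the mRNA decay list 1 in every alternative. With a library left out, the other ligands had 0 to 2 calls, the receptors 0 to 1, the inducing cytokines and receptors 1 to 2 and the transcription factors 7 to 11, against 2, 1, 3 and 14. With the replicate block they had 1, 0, 1 and 8. The counts of the other ligands include CCL26, which was tested through its OX-LDL level alone. The other ligands had 1 call in limma with a pseudocount of 1, on counts per read pair, with a minimum of 1 FPKM and with no minimum. The receptors had 0 calls with a minimum of 1 FPKM and with no minimum. The inducing list had 5 calls in DESeq2 and 1 in limma with pseudocounts of 0.1 and 0.01 and with no minimum. The causes were not tested. Libraries with the same number did not deviate together (correlations of -0.11, -0.03 and 0.00 for numbers 1, 2 and 3). With 3 libraries per group, these correlations cannot exclude that libraries were paired by number. At most 10.8 read pairs of CXCL1 per library limit what could be resolved.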
